A study of Mus musculus with 8 samples.

Results

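The genes described here encode the fibroblast growth factors (FGFs), their receptors and coreceptors, the adaptors that dock to the receptors, and the inhibitors and transcription factors that FGF signaling is known to induce. A list of 41 genes was set by symbol, and 40 of them matched a row among the 43346 gene identifiers counted. Spry3 had no matched row and was not analysed here. The samples hold RNA of notochord-derived cells (NDCs) from the mouse line Shh-cre;ROSA:YFP, taken on embryonic day 12.5 (E12.5) or on postnatal day 0 (P0), with 4 litters at each stage. In this line Cre made from the Shh gene switches on a yellow fluorescent protein in Shh-expressing cells and their descendants. Both stages carried the same alleles, no treatment is named, and each sample was a pool of the embryos or pups of 1 litter, so the litter is the replicate. Notochords at E12.5 were dissected whole without a sort, whereas nucleus pulposus (NP) cells at P0 were dissociated from the discs and sorted for the fluorescent protein. The stage and the way of isolation therefore cannot be told apart. The E12.5 litters 1 to 4 carry the labels NDP10.2, NPD3, NPD4 and NPD9.2, and the P0 litters 1 to 4 carry NPD26, NPD27, NPD28 and NPD30.

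FGFs are secreted proteins that bind receptor tyrosine kinases together with heparan sulfate on the cell surface. The activated receptor phosphorylates the adaptor FRS2, which recruits GRB2 and starts the RAS and MAP kinase cascade. That cascade induces the ETS factors ETV4 and ETV5 and a set of inhibitors, the Sprouty and Spred proteins and the phosphatase DUSP6, so the mRNAs of these genes are widely used as a readout of the pathway. A separate branch of the family, the FGF homologous factors, stays inside the cell and binds voltage-gated sodium channels. In the developing skeleton FGF18 and FGFR3 are known as regulators of cartilage growth.

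Reads counted on genes numbered 4442775 to 7180221 per sample at E12.5 and 6371842 to 8904050 at P0, and 3 reads, the upper limit that a count of 0 allows, equalled 0.353 to 0.738 CPM, the unit of read counts scaled to the effective library size. Such limits cover counting error only. The labelled tissue was checked with 9 notochord genes, whose levels summed to 1690 to 4010 CPM in the E12.5 litters and 1970 to 6940 CPM in the P0 litters. The notochord factor T was present in all samples at 242 to 2320 CPM, whereas Noto, a factor of the early node and notochord, was at or near 0 in all of them. The list did not move one way, with Krt19 and Cd24a called higher at P0 and Foxa1 and Shh called lower, and Shh went from 420 to 1350 CPM at E12.5 to 0.157 to 11.8 CPM at P0. Markers of other cells moved with the stage. The 10 leukocyte genes summed to 58.9 to 113 CPM at E12.5 and 782 to 7230 CPM at P0, and the 8 sclerotome genes to 167 to 256 CPM at E12.5 and 13.2 to 29.6 CPM at P0. The 6 skeletal muscle genes summed to 91.9 to 427 CPM and 20.2 to 112 CPM, the 5 osteoblast genes to 29.4 to 84.1 CPM and 317 to 658 CPM, the 5 endothelial genes to 69.1 to 141 CPM and 22.3 to 107 CPM, and the 6 erythroid genes to 9700 to 46700 CPM and 313 to 1050 CPM, in that order of stages. All 10 leukocyte genes and 3 osteoblast genes were called higher at P0, and all 8 sclerotome genes, 4 muscle genes, 5 erythroid genes and 1 gene each of the neural and endothelial lists were called lower. Their part in the changes of the FGF genes was not tested. In such bulk samples fewer cells of a type and less RNA per cell cannot be told apart.

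Of the 40 FGF genes, 26 passed the filter on low counts and were tested, and 14 did not pass. The threshold for a call was an adjusted p of 0.05 in edgeR's quasi-likelihood F-test with Benjamini-Hochberg adjustment over all 15467 genes tested. At P0 compared to E12.5, 12 FGF genes (46.2% of those tested) were called, 1 with higher mRNA abundance (Fgf1) and 11 with lower abundance (Fgf18, Fgf15, Fgf11, Fgfr1, Fgfr2, Fgfr4, Fgfrl1, Spry2, Spry4, Spred3 and Etv4). The background was 27.9% of all genes called, 16.0% higher and 12.0% lower at P0. The median log2 fold change was -1.1 over the 26 FGF genes and 0.04 over all genes tested. The filter asks for enough reads in as many samples as 1 stage holds, so a gene can pass through its higher stage alone. Genes such as Fgf15, Fgfr4, Fgf5, Fgf7, Fgf9 and Fgf10 passed through their E12.5 levels. Kl and Fgf2, with more reads at P0, did not pass. The median and the counts of lower genes, here and below, therefore depend in part on the filter. Levels of the litters did not overlap between the stages for 12 of the 26 genes, against 29.9% of all genes tested, and 10 of these 12 were called. Leaving out any 1 of the 8 litters kept the call of 9 of the 12 called genes, and the 3 for which it did not were Fgf11, Fgfr1 and Fgfrl1.

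**Figure D1:**
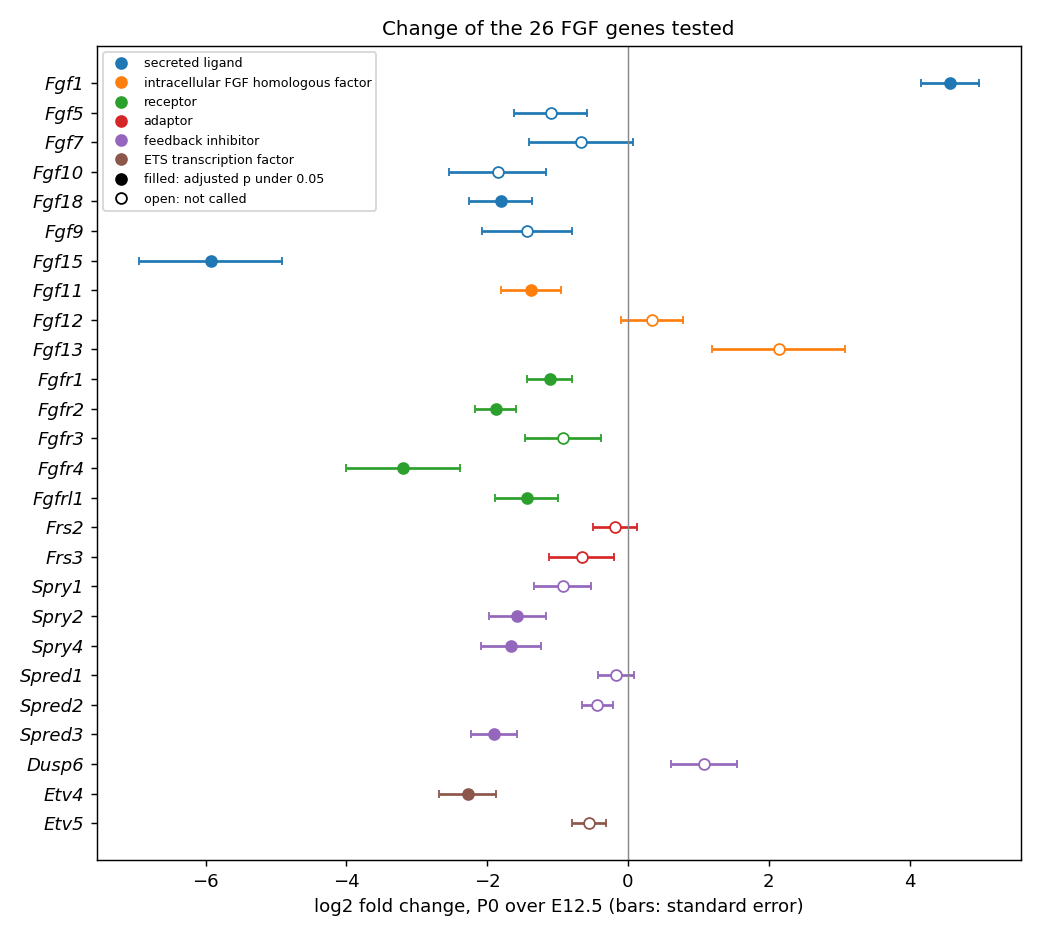
The log2 fold change at P0 compared to E12.5 (horizontal axis, bars are the standard error) of the 26 FGF genes tested, coloured by role, with filled points for called genes. Fgf1 lies at 4.57 and is the only filled point right of 0, while the 5 receptor genes all lie left of it.

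Since several of these genes are known targets of ETS factors, the stretch from 250 bases before to 50 bases after the start site of each entry in the RefSeq table was searched for CCGGAA or its reverse complement TTCCGG, the letters of a strong ETS binding site. The shorter core GGAA or TTCC occurs in 96.0% of all such promoters and was too common to describe a gene by. The longer motif occurs in 4894 of 32851 promoters (14.9%). A promoter sequence was found for 31 of the FGF genes, with 39 promoters in all. Of those promoters 6 held the motif, each of a different gene, a share near that of all promoters. Among the 7 called genes with a promoter sequence, all of them lower at P0, the motif lay in those of Fgfr4, Fgfrl1 and Spry2. It was absent from those of Fgf11, Fgf18, Fgfr2 and Spred3, and no promoter sequence was found for Fgf1, Fgf15, Fgfr1, Spry4 and Etv4. The sites are shown with the bases around them because they are the letters these members share, written 5′ to 3′ along the gene on GRCm38.p6 with the motif in capitals.
Fgfr4, chr13:55152628-55152657, plus strand: ggacgtggggccCCGGAAcgactgagactg
Fgfrl1, chr5:108694169-108694198, plus strand: ctcgcagattggCCGGAAgttgtgcggggc
Spry2, chr14:105896770-105896798, minus strand: aggtcatctatcCCGGAAtccgggagggt
Fgf12, chr16:28446134-28446163, minus strand: gcccgtctcatgCCGGAAcgcaggcagtga
Fgf5, chr5:98253934-98253960, plus strand: cggagccgaTTCCGGagccgctggctc
Frs2, chr10:117148553-117148582, minus strand: gcctgggagcagTTCCGGtgccaaacccct
Frs2, chr10:117148519-117148548, minus strand: tcccccgctcccCCGGAAgtgcttgtctag
The motif began 178 bases before the RefSeq start in Fgfr4 and 48 before it in Fgfrl1, and 33 bases after it in Spry2. In the Gencode annotation, whose gene spans are given below, Fgfr4 begins at 55152640 and Fgfrl1 at 108692382. The motifs of both therefore lie within the annotated gene. Fgf12, Fgf5 and Frs2 hold the motif too and were tested but not called. A match to these letters is a description of the sequence and not a measurement of binding.

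The secreted ligands were led by different genes at the 2 stages. Of 18 genes, 7 passed the filter and 3 were called (42.9% of those tested, against 27.9% of all genes). Fgf1 was higher and Fgf18 and Fgf15 were lower at P0. Fgf1 encodes the acidic FGF, which binds all the FGF receptors and lacks a classical secretion signal, and lies on chromosome 18. It stood at 4.25, 5.27, 2.30 and 3.69 CPM in the E12.5 litters 1 to 4 and at 79.9, 62.2, 67.0 and 157 CPM in the P0 litters 1 to 4. Every P0 litter was far above every E12.5 litter, and the highest was P0 litter 4, which had the lowest leukocyte sum of the P0 litters (782 CPM) and the highest osteoblast and notochord sums (658 and 6940 CPM). Their part in the Fgf1 level was not tested. The log2 fold change was 4.57 (SE 0.41, adjusted p = 8.69e-05), a 23.8-fold difference, and it ranged from 4.15 to 4.73 when 1 litter was left out.

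Fgf18 (chr11:33117430-33147400, minus strand) belongs to the Fgf8 subfamily and acts on cartilage and bone. Its levels were 3.77, 6.83, 11.1 and 10.3 CPM at E12.5 and 2.20, 2.60, 1.88 and 2.43 CPM at P0. The stages did not overlap, and the E12.5 litters spread far more than the P0 litters. On the log2 scale the change was -1.81 (SE 0.45, adjusted p = 0.0115). Fgf15 (chr7:144896531-144900953, plus strand), the mouse counterpart of human FGF19 and an endocrine FGF, had 31, 12, 14 and 9 reads at E12.5 and 0, 1, 0 and 0 reads at P0. These are 7.31, 2.34, 1.69 and 2.21 CPM against 0, 0.144, 0 and 0 CPM, so Fgf15 was all but undetected at P0. The ratio of E12.5 over P0 in reads summed over the litters was 86.3 with an exact 95% counting interval of 15.0 to 3460. The fit gave a log2 fold change of -5.93 (SE 1.02, adjusted p = 0.00193), a 61.0-fold difference. In the annotation 25.7% of the exon bases of Fgf15 are shared with genes on the opposite strand, and the strand setting of the counting was not given in the sources used here, so the source of reads in those stretches is uncertain.

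The other 4 ligands tested were not called. Fgf10, the ligand of limb and lung buds that acts on epithelial FGFR2, ranged from 1.76 to 6.84 CPM at E12.5 and from 0.303 to 1.89 CPM at P0 (log2 fold change -1.85, adjusted p = 0.0663). Under DESeq2's Wald test its adjusted p was 0.0267. Fgf9 ranged from 3.02 to 5.90 CPM and from 0.235 to 2.99 CPM (-1.43, adjusted p = 0.121), and Fgf5, a regulator of the hair cycle, from 1.56 to 2.83 CPM and from 0.824 to 1.26 CPM (-1.10, adjusted p = 0.14). In both genes all P0 litters lay below all E12.5 litters, on totals of 91 against 44 reads for Fgf9 and 47 against 29 reads for Fgf5. Fgf7, the keratinocyte growth factor, ranged from 1.81 to 3.71 CPM and from 0.118 to 3.15 CPM (-0.67, adjusted p = 0.543).

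The remaining 11 secreted ligands did not pass the filter and were detected by few reads or not at all. Fgf2, the basic FGF, had 4 reads at E12.5 and 42 at P0, a ratio of P0 over E12.5 of 8.03 with an exact 95% counting interval of 2.91 to 30.8. Its levels were 0, 0, 0.363 and 0.246 CPM at E12.5 and 1.26, 0.433, 1.88 and 2.27 CPM at P0. These do not overlap, but E12.5 litter 3 and P0 litter 2 both had 3 reads and differ only by library size. Without the filter the adjusted p was 0.0989, and 13.2% of its exon bases are shared with other genes, mainly Nudt6 on the opposite strand. Fgf6, a ligand known from muscle, had 6, 0, 5 and 5 reads at E12.5 and none at P0. Against a floor of 3 reads over the P0 group its level was at least 6.98-fold higher at E12.5, a bound that takes the E12.5 reads as exact. With the counting error of both stages the exact 95% interval of the ratio began at 5.04, and the fit without the filter gave an adjusted p of 0.0406. The skeletal muscle genes summed to 189 CPM in E12.5 litter 2, where Fgf6 had no read, and to 366, 91.9 and 427 CPM in E12.5 litters 1, 3 and 4.

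Fgf3 had 11 reads at E12.5 and 24 at P0 (adjusted p without the filter 0.792), Fgf4 had 3 and 15 reads (0.411), Fgf17 had 15 and 11 (0.588) and Fgf23, the phosphate-regulating hormone of bone, had 12 and 25 (0.843). Of the 25 P0 reads of Fgf23, 20 came from P0 litter 2. Fgf8 had 3 reads at E12.5 and 5 at P0, Fgf22 had 2 and 2, Fgf16 had 0 and 5, Fgf20 had 0 and 3, and Fgf21 had 0 and 2. At this depth no difference was detectable for these 5 genes.

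Per length, the secreted ligands summed to 13.8 ± 2.59 FPKM (CPM per kilobase of exon; SD, n = 4) at E12.5 and 22.2 ± 7.85 FPKM at P0. Fgf18 made up 48.7% ± 18.8 of that sum at E12.5 and 9.2% ± 2.29 at P0. Fgf1 made up 5.36% ± 2.39 and 73.9% ± 11.6. Across the E12.5 litters Fgf1 held 3.15% to 8.47% and Fgf18 held 24.3% to 70.2%, and across the P0 litters Fgf1 held 59.2% to 85.7% and Fgf18 held 6.11% to 11.4%. These shares describe which ligand mRNA was most abundant and were not tested. Only 2 ligands exceeded a mean of 1 FPKM at each stage, Fgf18 (6.75 ± 2.85) and Fgf15 (1.11 ± 0.860) at E12.5 and Fgf1 (16.7 ± 8.07) and Fgf18 (1.92 ± 0.259) at P0. Behind Fgf18 at E12.5 came Fgf15, Fgf9, Fgf7, Fgf10, Fgf5 and Fgf1 between 1.11 and 0.709 FPKM, an order in which neighbours did not differ beyond their spread.

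**Figure D2:**
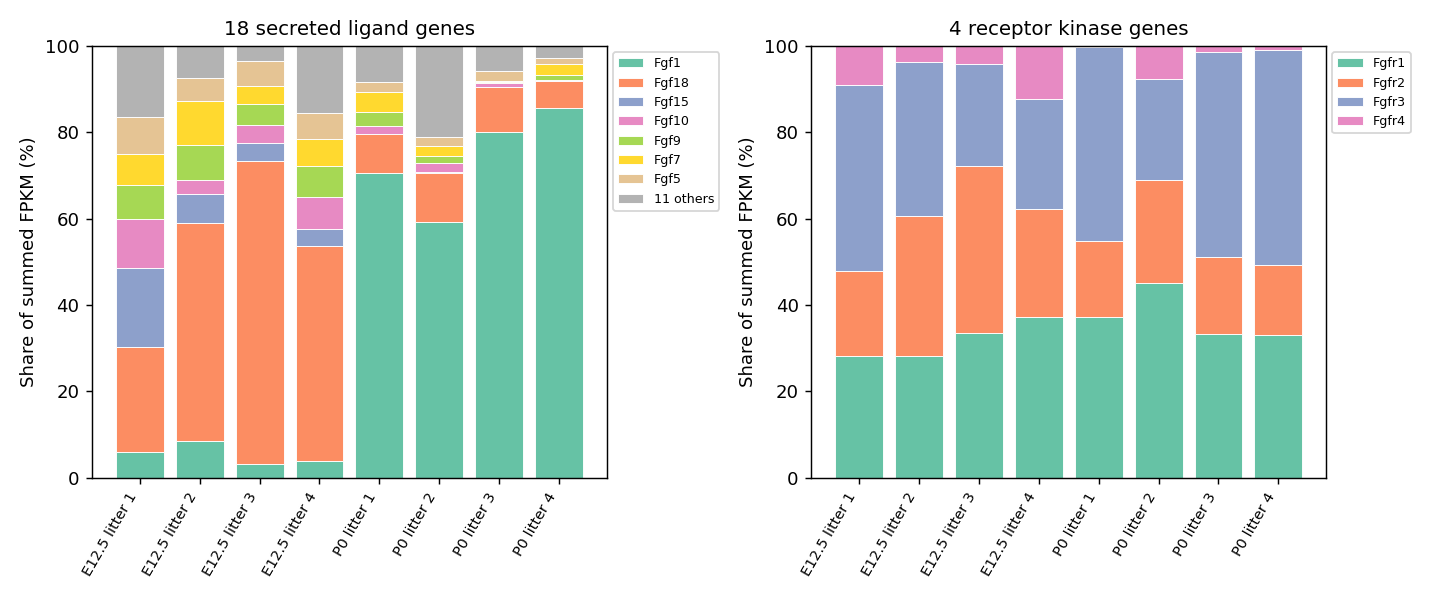
Share of the summed FPKM (vertical axis, in %) taken by each of the 18 secreted ligand genes (left) and the 4 receptor kinase genes (right) in each of the 8 litters. Fgf18 takes 24.3% to 70.2% of the ligand bars at E12.5 and Fgf1 takes 59.2% to 85.7% at P0, whereas the receptor bars are split among Fgfr1, Fgfr2 and Fgfr3 at both stages.

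The FGF homologous factors, which are not secreted, did not move together. Fgf11 (chr11:69796068-69801857, minus strand) fell, from 10.9, 12.1, 14.1 and 13.5 CPM at E12.5 to 3.62, 6.20, 1.88 and 7.73 CPM at P0. The stages did not overlap, and the log2 fold change was -1.38 (SE 0.43, adjusted p = 0.0348). That call was lost in 6 of the 8 fits without a litter. It held without E12.5 litter 1 or P0 litter 4, and without each of the others the adjusted p was 0.0502 to 0.0917. Fgf12 ranged from 4.92 to 11.8 CPM at E12.5 and from 6.24 to 17.8 CPM at P0 (log2 fold change 0.34, adjusted p = 0.609). Fgf14 had 21 reads at E12.5 and 61 at P0, did not pass the filter, and had an adjusted p of 0.35 without it.

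Fgf13 had the highest level per length of all FGF genes at P0, 55.5 ± 21.0 FPKM (SD, n = 4). It stood at 14.9, 9.56, 169 and 6.64 CPM in the E12.5 litters 1 to 4 and at 340, 209, 138 and 206 CPM in the P0 litters. A single E12.5 litter, litter 3, lay within the P0 range, and the other 3 lay below all P0 litters. With all litters the log2 fold change was 2.14 (SE 0.94, adjusted p = 0.118). Without E12.5 litter 3 it was 4.42 (adjusted p = 0.00011), and limma-voom, which weights each count by its precision, gave 3.13 (adjusted p = 0.0176) on all litters. The 9 neural tube genes summed to 1270 CPM in E12.5 litter 3 against 96.6 to 156 CPM in the other E12.5 litters and 153 to 351 CPM at P0. Most of that sum came from the neuronal genes Tubb3, Dcx and Elavl3, at 576, 378 and 289 CPM in that litter. Sox2 was also highest there (27.0 CPM), but Pax6 was lower there than in the other E12.5 litters (1.57 CPM). Sox3, Nkx2-2, Olig2 and Nkx6-1 were at 0.604, 1.57, 0.121 and 0.242 CPM in E12.5 litter 3. FGF13 is known from neurons, and the part of neural RNA in the Fgf13 level of E12.5 litter 3 was not tested.

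Of the 5 receptor genes, 4 were called lower at P0, against 12.0% of all genes, and Fgfr3 was not called. All 5 had a negative fold change, against 48.4% of all genes tested. Fgfr2 (chr7:130162451-133123350, minus strand), whose splice forms serve epithelium and mesenchyme, showed the clearest separation. Its levels were 134, 161, 110 and 124 CPM at E12.5 and 21.9, 31.3, 37.2 and 53.1 CPM at P0. The lowest E12.5 litter was above the highest P0 litter by a wide margin, and the log2 fold change was -1.88 (SE 0.29, adjusted p = 0.0011). It stayed between -2.17 and -1.70 when 1 litter was left out. Counts per gene do not separate the splice forms of the receptors. The span given for Fgfr2 is that of the annotation, which shares 314 exon bases with Ctbp2 on the same strand. The RefSeq promoter of Fgfr2 lies within it, at chr7:130266759-130267058.

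Fgfr1 (chr8:25513654-25575718, plus strand), the receptor of early mesoderm, was at 183, 135, 91.0 and 176 CPM at E12.5 and at 44.5, 56.2, 66.9 and 103 CPM at P0. P0 litter 4 lay above E12.5 litter 3, so the stages overlapped. Its log2 fold change was -1.11 (SE 0.32, adjusted p = 0.023), and the call was lost without E12.5 litter 1 or 4 or P0 litter 1 or 2, where the adjusted p was 0.0572 to 0.0641. Fgfrl1 (chr5:108692382-108706924, plus strand), a receptor-like protein without a kinase domain, was at 131, 87.4, 43.3 and 63.7 CPM at E12.5 and at 17.9, 15.1, 35.9 and 50.9 CPM at P0. Here too P0 litter 4 lay above E12.5 litter 3. The log2 fold change was -1.44 (SE 0.45, adjusted p = 0.0348), and the call was lost without E12.5 litter 1 or 2 or P0 litter 1, 2 or 3, where the adjusted p was 0.0573 to 0.0926.

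Fgfr4 (chr13:55152640-55168759, plus strand), a receptor known from muscle precursors and liver, had the largest fall among the receptors. It was at 21.2, 6.24, 3.99 and 20.7 CPM at E12.5 and at 0.157, 3.46, 1.06 and 0.910 CPM at P0. The stages did not overlap, but E12.5 litters 1 and 4 were far above litters 2 and 3. Its log2 fold change was -3.19 (SE 0.81, adjusted p = 0.014). Without P0 litter 2 it was -4.11, and without E12.5 litters 1 and 4 together it was -1.89 (adjusted p = 0.183). In the order of litters the skeletal muscle genes summed to 366, 189, 91.9 and 427 CPM at E12.5 and to 56.6, 112, 20.2 and 44.4 CPM at P0. E12.5 litters 1 and 4 had most Fgfr4 and the largest muscle sums at E12.5, as P0 litter 2 had at P0. E12.5 litters 1 and 4 also had erythroid sums of 24000 and 46700 CPM, against 9700 and 9800 CPM in E12.5 litters 2 and 3. Their share of tallied reads on genes was 22.6% and 24.6%, against 32.6% and 33.7% in E12.5 litters 2 and 3. In P0 litter 2 Acta1 made up 90.6 CPM of the sum. Myod1 and Myog were highest at P0 in litter 1 (1.42 and 1.89 CPM), the P0 litter with least Fgfr4. The parts of muscle RNA, erythroid RNA and library quality in the Fgfr4 level were not tested. Fgfr3, the receptor that restrains chondrocyte growth, was the receptor not called. It ranged from 46.8 to 203 CPM at E12.5 and from 21.1 to 113 CPM at P0 (log2 fold change -0.93, adjusted p = 0.239), and 13.9% of its exon bases are shared with an annotated gene on the opposite strand.

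Per length, the 4 receptor kinases summed to 47.3 ± 15.7 FPKM at E12.5 and 19.2 ± 9.11 FPKM at P0 (SD, n = 4). At E12.5 Fgfr3 (16.0 ± 9.27 FPKM), Fgfr1 (14.8 ± 4.29) and Fgfr2 (12.8 ± 2.10) did not differ beyond their spread, and Fgfr4 (3.68 ± 2.59) stood below them. At P0 the order was Fgfr3 (8.44 ± 5.61), Fgfr1 (6.86 ± 2.58), Fgfr2 (3.47 ± 1.27) and Fgfr4 (0.394 ± 0.404), in which Fgfr3 and Fgfr1 did not differ beyond their spread, while Fgfr1 was above Fgfr2 within each of the 4 P0 litters (4.51 and 2.12, 5.69 and 3.03, 6.77 and 3.60, 10.5 and 5.14 FPKM). Of the summed receptor level, Fgfr2 made up 29.0% ± 8.30 at E12.5 and 18.9% ± 3.46 at P0. Fgfr3 made up 32.0% ± 9.04 and 41.3% ± 12.2, and Fgfr1 31.8% ± 4.40 and 37.2% ± 5.57. The share of Fgfr4 was 7.27% ± 4.11 and 2.60% ± 3.45. Fgfrl1 was at 29.2 ± 13.5 FPKM at E12.5, the highest mean level of all FGF genes at that stage, and at 10.8 ± 6.01 FPKM at P0.

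The coreceptors of the endocrine FGFs did not pass the filter. Kl, which encodes Klotho, the partner of FGF23, had 1, 0, 0 and 0 reads at E12.5 and 13, 8, 13 and 15 reads at P0. The P0 levels of 2.04, 1.15, 1.53 and 2.27 CPM all lay above the E12.5 levels, of which the highest was 0.236 CPM. The ratio of P0 over E12.5 was 37.5 with an exact 95% counting interval of 6.42 to 1510, and the fit without the filter, in which 15.2% of 32299 genes were called, gave an adjusted p of 0.0119. Klb, the partner of FGF15 and FGF21, had 1 read at E12.5 and 17 at P0, of which 11 came from P0 litter 2 (ratio 13.0, interval 2.04 to 543, adjusted p without the filter 0.251).

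Neither adaptor was called. Frs2, which links the receptors to the MAP kinase cascade, ranged from 50.2 to 88.2 CPM at E12.5 and from 35.9 to 82.6 CPM at P0 (log2 fold change -0.18, adjusted p = 0.71). Its relative Frs3 ranged from 5.56 to 13.4 CPM and from 3.41 to 9.85 CPM (-0.66, adjusted p = 0.317), with 18.5% of its exon bases shared with other genes.

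**Figure D3:**
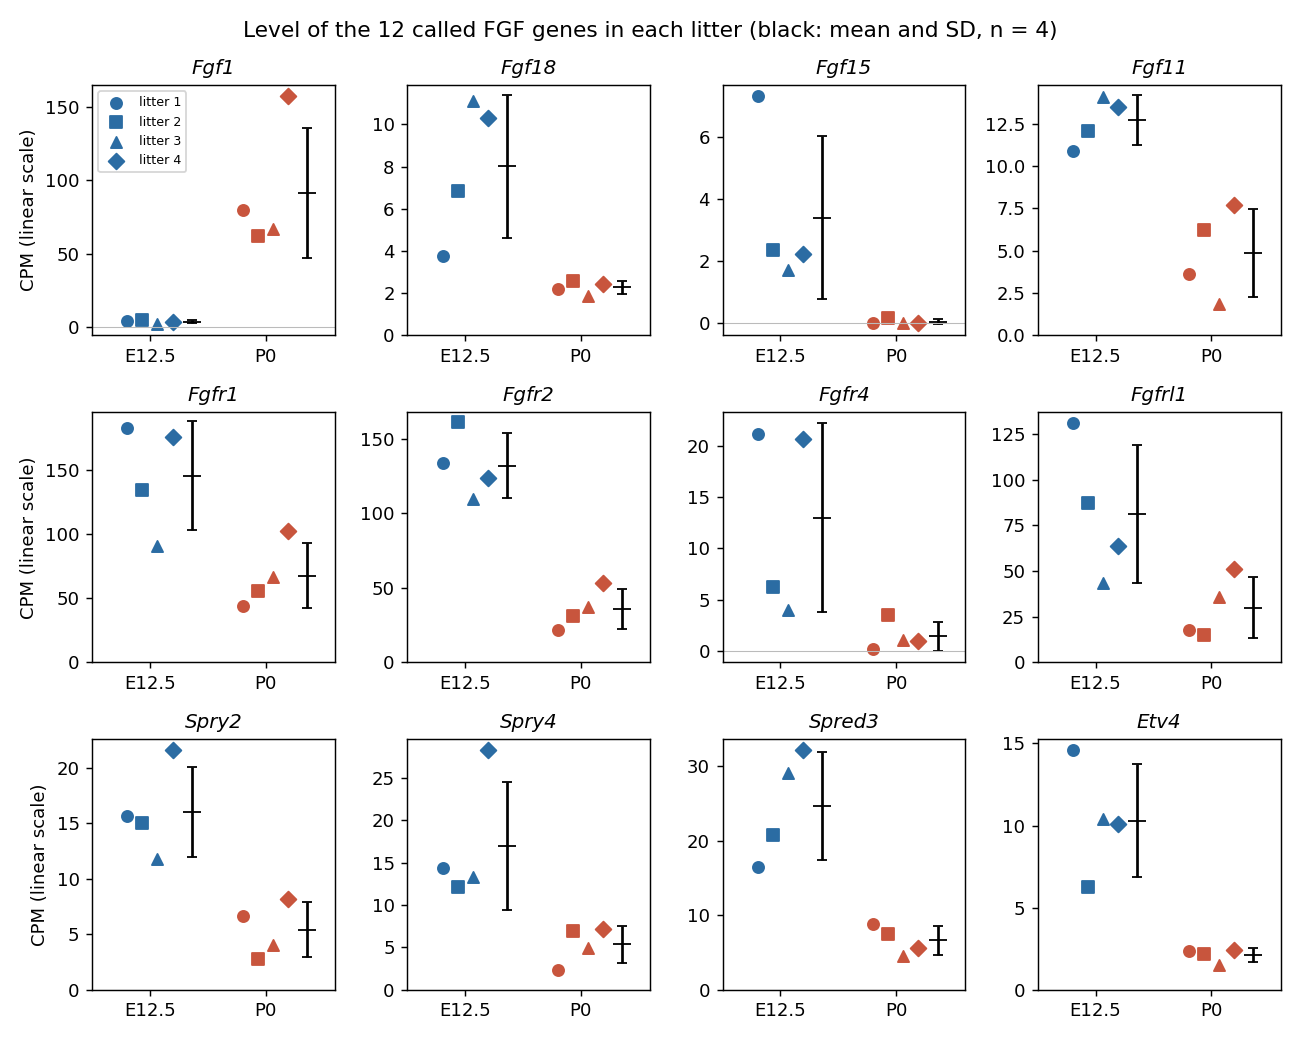
CPM on a linear scale (vertical axis) of the 12 called FGF genes in the 4 litters of each stage, with the mean and SD beside the points. Fgf1 rises from at most 5.27 CPM to at least 62.2 CPM, the other 11 genes fall, and P0 litter 4 reaches into the E12.5 range in Fgfr1 and Fgfrl1.

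Of the 7 feedback inhibitors analysed, 3 were called, all lower at P0 (42.9%, against 27.9% of all genes called and 12.0% called lower), and 4 were not called. Spred3, of the Spred family of inhibitors of RAS and MAP kinase signaling, had the lowest adjusted p of the group. Spred3 (chr7:29158829-29170411, minus strand) stood at 16.5, 20.7, 29.0 and 32.2 CPM at E12.5 and at 8.81, 7.50, 4.47 and 5.61 CPM at P0. The stages did not overlap, and the log2 fold change was -1.90 (SE 0.33, adjusted p = 0.00218). Spry2 (chr14:105891947-105896819, minus strand), a Sprouty protein induced by receptor tyrosine kinase signaling, was at 15.6, 15.0, 11.8 and 21.6 CPM at E12.5 and at 6.60, 2.74, 4.00 and 8.19 CPM at P0. Every P0 litter was below every E12.5 litter, with a log2 fold change of -1.57 (SE 0.40, adjusted p = 0.0128).

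Spry4, the other Sprouty gene called, lies on chromosome 18. It was at 14.4, 12.1, 13.3 and 28.3 CPM at E12.5 and at 2.36, 6.92, 4.94 and 7.13 CPM at P0 (log2 fold change -1.66, SE 0.43, adjusted p = 0.0142). E12.5 litter 4 was the highest, and the stages did not overlap. Spry1 ranged from 7.86 to 25.3 CPM at E12.5 and from 7.28 to 12.3 CPM at P0 (log2 fold change -0.93, adjusted p = 0.11). Without E12.5 litter 3 the adjusted p of Spry1 was 0.0295, and 24.4% of its exon bases are shared with an annotated gene on the opposite strand. The other Spred genes were Spred1, at 56.3 to 76.7 CPM and 36.5 to 80.3 CPM (-0.17, adjusted p = 0.669), and Spred2, at 45.6 to 66.8 CPM and 33.5 to 48.1 CPM (-0.44, adjusted p = 0.17). The stages overlapped in both.

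Dusp6, the phosphatase that inactivates ERK, was the single feedback gene with a positive fold change. It stood at 50.5, 48.4, 47.0 and 59.3 CPM at E12.5 and at 104, 133, 175 and 23.0 CPM at P0. P0 litter 4 was below all E12.5 litters, and the other 3 P0 litters were above them. With all litters the log2 fold change was 1.08 (SE 0.47, adjusted p = 0.114), and without P0 litter 4 it was 1.38 (adjusted p = 0.00147). The 10 leukocyte genes, all of them called higher at P0, summed to 2980, 3620, 7230 and 782 CPM in the P0 litters 1 to 4. The P0 litters thus had the same order by Dusp6 as by this sum, but not by every gene in it. In the P0 litters 1 to 4 Ptprc was at 175, 250, 568 and 50.5 CPM, in the order of Dusp6. Laptm5 was at 858, 1130, 692 and 39.7 CPM and S100a9 at 247, 283, 2240 and 292 CPM, in other orders. The part of leukocyte RNA in the Dusp6 level was not tested.

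**Figure D4:**
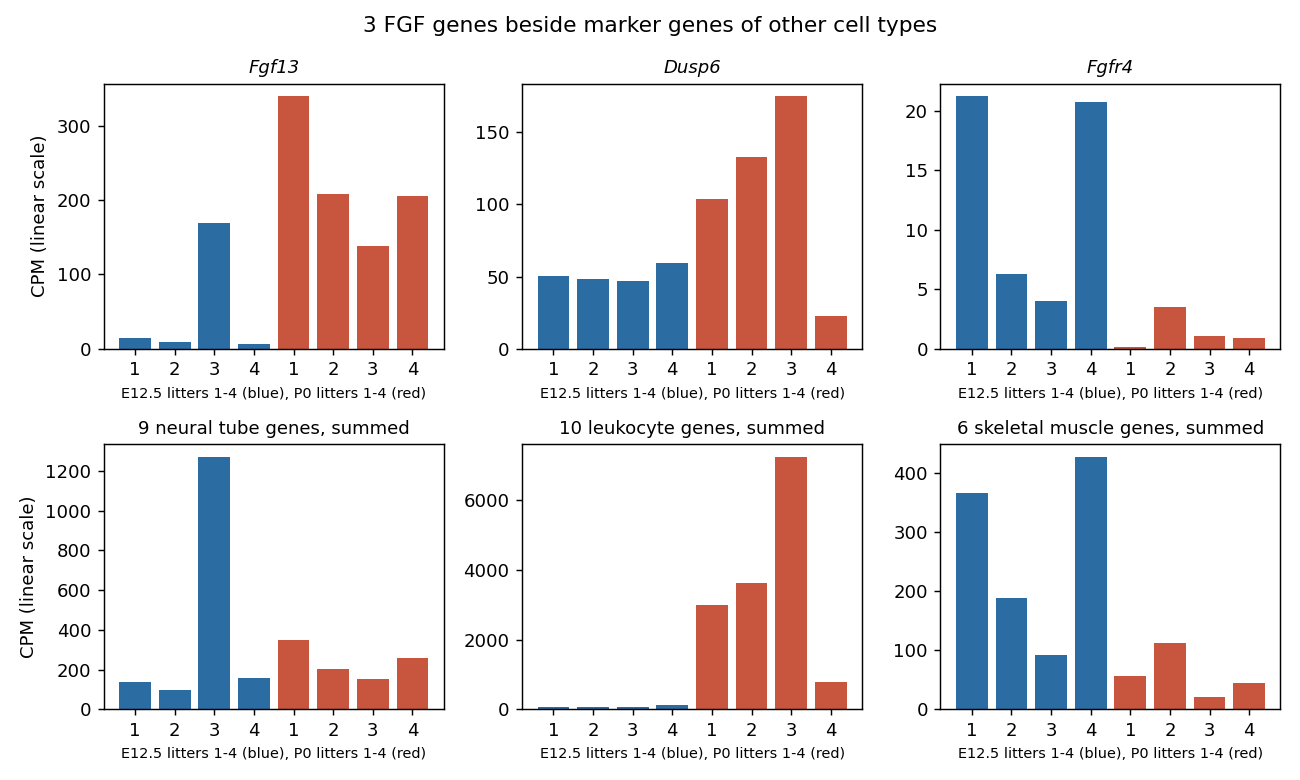
Upper row, CPM on a linear scale of Fgf13, Dusp6 and Fgfr4 in each litter (blue for E12.5, red for P0), and lower row, the summed CPM of the neural tube, leukocyte and skeletal muscle genes in the same litters. Litter 3 at E12.5 is high in Fgf13 and the neural sum, and P0 litter 4 is low in Dusp6 and the leukocyte sum. E12.5 litters 1 and 4 are high in Fgfr4 and the muscle sum.

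Of the ETS factors, Etv4 fell and Etv5 was not called. Etv4 (chr11:101769742-101785371, minus strand) was at 14.6, 6.24, 10.4 and 10.1 CPM at E12.5 and at 2.36, 2.16, 1.53 and 2.43 CPM at P0. The P0 litters were within a narrow band below all E12.5 litters, and the log2 fold change was -2.28 (SE 0.41, adjusted p = 0.00243). Etv5 was at 30.8 to 47.5 CPM at E12.5 and 20.6 to 34.9 CPM at P0 (-0.55, adjusted p = 0.119), and its stages overlapped. The feedback inhibitors and ETS factors together had 4 of 9 genes called lower and none higher, against 12.0% of all genes called lower, and 8 of 9 had a negative fold change, against 48.4% of all genes tested.

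A further 39 genes of the pathway were listed apart from the members, and 38 of them were tested. Among those, 6 were called higher and 9 lower at P0 (39.5% called, against 27.9% of all genes), with a median log2 fold change of -0.04. Of the 12 extracellular modulators tested, 4 were called (33.3%, against 27.9% of all genes) and these 4 were lower, namely Flrt1, Flrt2 and Flrt3, membrane proteins that bind FGF receptors, and Sulf1, which removes sulfate groups from heparan sulfate. Neither the enzymes that build heparan sulfate (Ext1, Ext2, Ndst1, Hs2st1, Hs6st1 and Hs6st2) nor Sulf2 nor Fgfbp3 were called. Sulf1 was at 165, 228, 81.4 and 122 CPM at E12.5 and at 22.8, 18.5, 15.5 and 21.5 CPM at P0 (-2.93, SE 0.33, adjusted p = 0.000262). Fgfbp1, a carrier that releases FGFs from the matrix, did not pass the filter. It was at 0.242 to 0.492 CPM at E12.5 and at 1.06 to 13.1 CPM at P0, with an adjusted p of 1.01e-05 in the fit without the filter.

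Of the 18 genes of the relay between receptor and nucleus, 3 were called higher and 2 lower (27.8% called, against 27.9% of all genes). Grb2, Map2k1 and Mapk3 were higher at P0, Gab1 and Plcg1 were lower, and Hras, Nras, Araf and Braf were not called. Grb2, the adaptor downstream of FRS2, was at 46.8 to 74.5 CPM at E12.5 and at 186, 203, 158 and 87.2 CPM in the P0 litters 1 to 4. Its log2 fold change was 1.43 (SE 0.29, adjusted p = 0.0043). In the same P0 litters the leukocyte genes summed to 2980, 3620, 7230 and 782 CPM, an order other than that of Grb2. Laptm5 among them was at 858, 1130, 692 and 39.7 CPM, in the order of Grb2, as were Tyrobp and Fcer1g. Ptprc was at 175, 250, 568 and 50.5 CPM, highest in P0 litter 3. Coro1a, Lcp1, Itgb2, Cd52, S100a8 and S100a9 were also highest in that litter. The part of leukocyte RNA in the Grb2 level was not tested.

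Among 8 other feedback and target genes, Fos, Dusp5 and Etv1 were called higher and Il17rd, Dusp4 and Dusp9 lower (75.0% called, against 27.9% of all genes). Dusp9, a phosphatase of ERK, was at 26.7, 14.2, 8.22 and 20.7 CPM at E12.5 and at 0.472, 1.73, 0.353 and 0.758 CPM at P0 (-4.37, SE 0.58, adjusted p = 0.000555). Dusp4, a nuclear phosphatase of MAP kinases, was at 20.3, 20.1, 11.5 and 20.4 CPM and at 1.26, 1.01, 0.471 and 1.67 CPM (-4.03, SE 0.45, adjusted p = 0.000234). The 3 genes with the largest fall were thus Dusp9, Dusp4 and Sulf1. In the other direction Fos, an immediate early gene, was at 5.43, 21.5, 1.21 and 5.16 CPM and at 311, 297, 118 and 170 CPM (4.76, SE 0.77, adjusted p = 0.00189), and Dusp5, a nuclear phosphatase of ERK, at 2.36, 2.15, 1.81 and 2.46 CPM and at 9.75, 11.7, 18.1 and 10.6 CPM (2.52, SE 0.37, adjusted p = 0.000959). With Grb2 these were the 3 with the largest rise. Leaving out E12.5 litter 2 moved Fos to 5.84, and leaving out P0 litter 2 moved Dusp9 to -5.00. Egr1, another immediate early gene of this group, was not called. It ranged from 8.83 to 181 CPM at E12.5 and from 91.1 to 252 CPM at P0 (1.37, adjusted p = 0.212). The P0 cells were dissociated and sorted before lysis and the E12.5 notochords were not, and the part of that handling in the Fos level was not tested.

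**Figure D5:**
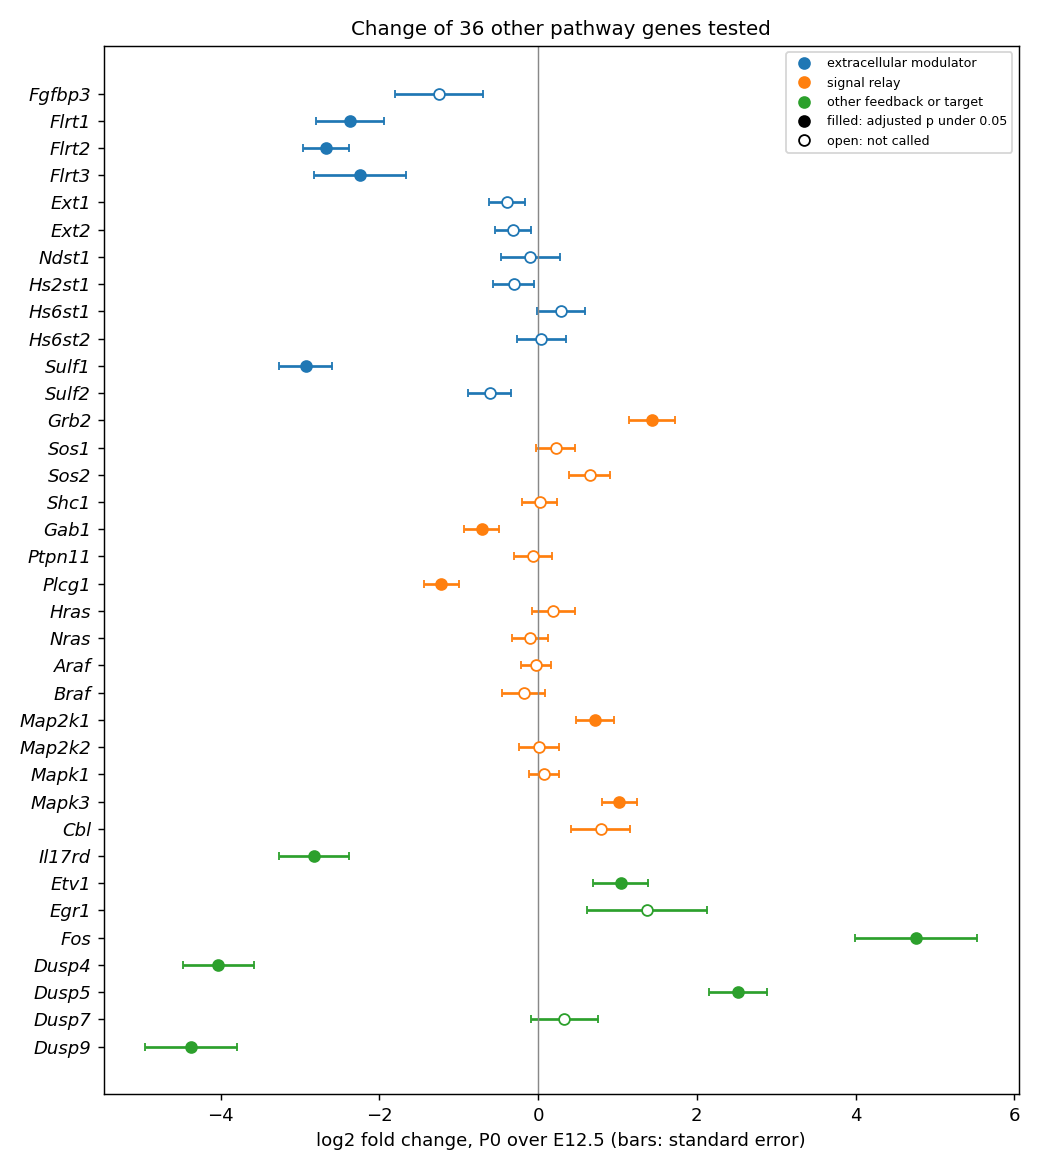
The log2 fold change at P0 compared to E12.5 (horizontal axis, bars are the standard error) of 36 of the 38 other pathway genes tested, with filled points for called genes. The heparan sulfate enzymes and Hras, Nras, Araf and Braf lie near 0 with open points, whereas Dusp4 and Dusp9 lie at -4.03 and -4.37 and Dusp5 and Fos at 2.52 and 4.76.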

How the data were processed

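RNA-Seq counts from 4 E12.5 and 4 P0 litters were used. Per the study's methods, the authors mapped single-end reads to GRCm38 with STAR and tallied them per gene of Gencode M4 with htseq-count. The deposited values are raw counts, not normalized. Reads with several positions were tallied apart, and 22.6% to 34.8% of the tallied reads fell on genes. The strand setting is not given in the sources used here. Symbols, positions and exon lengths came from Gencode M21 (GRCm38), which is later than M4, and promoters from RefSeq (GRCm38.p6). Identifiers with a symbol numbered 42462.

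Counts were tested in R 4.3.3 with edgeR 4.0.16 (TMM, filterByExpr with a minimum count of 10 and a minimum total of 15, robust quasi-likelihood F-test, P0 over E12.5, Benjamini-Hochberg over 15467 genes). CPM used TMM library sizes, and FPKM divided CPM by the exon length in kilobases. DESeq2 1.42.0 and limma 3.58.1 (voom) gave alternatives, beside other normalizations and filters, left-out genes, downsampling and left-out litters. Samples were grouped by labelled age. Every listed gene is named, called ones with the value of each litter. Of the other pathway genes, all called ones are named and the 3 largest rises and 3 largest falls get values. Among the pathway genes that were not called, 2 are not reported here by name. Marker lists were summed in CPM. The genes, lists and tests were chosen with earlier results of these data known. P-values measure the spread between litters.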

Additional observations from a re-analysis of the deposited data

Results flagged for a closer look

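The level of Fgf15 in P0 litter 2 stood apart from the other P0 litters, at 0.144 CPM against 0 in each of them. It rests on 1 read. It was the single outlier among 52 sets of 4 litters checked with Dixon's test (26 FGF genes at 2 stages), where chance flags about 1 in 20 sets.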

How the results depend on the processing

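Across the alternatives the 12 called FGF genes kept their direction. Leaving out 1 litter at a time gave 9 to 13 called genes, with 1 to 2 of them higher at P0, and 81 of 96 single results kept their call. The higher count was 2 without E12.5 litter 3 (Fgf13 added) and without P0 litter 4 (Dusp6 added), and also 2 under limma-voom (Fgf13 added) and with no filter (Kl added). Under the remaining settings 111 of 117 results kept their call. Without the E12.5 litters 1 and 4 (NDP10.2 and NPD9.2) together, 7 FGF genes were called, 5 lower and 2 higher, the latter Fgf1 and Kl, and 2581 genes in all, with 2 samples left at E12.5. Those 5 were Fgf18, Fgf15, Fgfr2, Spred3 and Etv4, so Fgf11, Fgfr1, Fgfr4, Fgfrl1, Spry2 and Spry4 lost their calls. The left-out litters had 22.6% and 24.6% of tallied reads on genes, against 32.6% and 33.7% in E12.5 litters 2 and 3. The log2 fold change of Frs2, which was not called, ran from -0.37 to 0.03, turning without P0 litter 1 (adjusted p = 0.959). The cause was not tested. Of the called genes, Fgf15 and Fgfr4 did not pass a minimum of 10 counts in every sample, and Fgf15 did not pass the filter after downsampling. No paired analysis was possible because the stages share no litter or replicate label. Upper quartile factors moved the median log2 fold change of all genes by -0.15, from 0.04 to -0.11, and left the same 12 FGF genes called. For the 5 ligands with under 10 reads in all no difference was detectable at this depth.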
